A study of Bos taurus with 2 samples.

Results

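PAX3 cells were the cultured bovine satellite cells in which at least 1 unique molecular identifier (UMI, the tag that counts 1 captured transcript) of PAX3 (ENSBTAG00000009950) and 0 UMIs of PAX7 were counted. They numbered 281 of 19096 cells, 142 of 9939 in replicate 1 and 139 of 9157 in replicate 2. The cells came from skeletal muscle of 1 Holstein bull calf 2 weeks of age, had grown for 1 week in DMEM with 10% fetal bovine serum, and carried no other treatment or genetic change. Both replicates were droplet libraries prepared from the same cells. Every p-value below therefore rests on the sums of 2 library preparations and measures no spread between animals. Replicate 1 held 1.46e+08 UMIs and replicate 2 held 1.38e+08. The comparison cells were drawn from the 18639 cells with 0 UMIs of both genes, 10 for each PAX3 cell from the same library and the same of 10 bins of total UMIs, which gave 1420 and 1390 cells. A further 173 cells with PAX7 and no PAX3 UMIs (93 and 80) are called PAX7 cells. A cell with 0 PAX3 UMIs may still have expressed the gene, because PAX3 made up 1.11 UMIs per 1000000 over the culture and the mean PAX3 cell gave 19371 UMIs in all.

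PAX3 and PAX7 are paired-box transcription factors of the muscle lineage. PAX3 acts early, in the dermomyotome and in precursors that migrate into the limb, while PAX7 marks most satellite cells, the stem cells that lie beneath the basal lamina of muscle fibres. Both lie upstream of MYF5 and MYOD1, which commit cells to the myoblast fate, and myogenin (MYOG) then drives myoblasts out of the cell cycle into fusing myocytes that build the contractile apparatus. PAX3 is also used by neural crest cells, which give rise to glia and melanocytes.

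PAX3 was a rare transcript. The files held 316 PAX3 UMIs in 284 cells, 157 UMIs in replicate 1 and 159 in replicate 2, and 3 of these cells also held PAX7 and were left out. The PAX3 level was 1.08 UMIs per 1000000 in replicate 1 (exact Poisson 95% interval 0.916 to 1.26) and 1.15 in replicate 2 (0.981 to 1.35), so the libraries differed by less than their counting error. The share of cells with a PAX3 UMI was 1.49% (exact binomial 95% interval 1.32% to 1.67%), and 1.06% after each cell with 10000 UMIs or more was thinned to that number. These intervals cover counting error only. Just inside the rule stood 253 cells with 1 UMI, 25 had 2 UMIs, 2 had 3 and 1 had 4, and just outside it stood the cells with 0. The 28 cells with 2 or more were divided into 13 in replicate 1 and 15 in replicate 2. PAX7 was found in 1.06% of the cells with PAX3 and in 0.920% of the cells without it.

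PAX3 cells were deeper than the rest, and a deeper cell has more chances to show a rare transcript. Their median was 17532 UMIs (range 1362 to 47601) against 14815 in cells without either gene, and the matching brought the comparison cells to 17396.5. Median numbers of genes detected were 3918 in the PAX3 cells and 3914 in the matched cells. Scrublet, which scores cells against simulated mixtures of 2 cells, marked 11.4% of the PAX3 cells as doublets, 12.7% of the matched cells and 7.32% of all cells. The libraries shared 27 barcodes, of which 1 belonged to a PAX3 cell.

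PAX3 was spread unevenly over the study's 15 clusters. The level was highest in cluster 8, with 2.77 UMIs per 1000000 (2.03 to 3.68, 47 UMIs), and in cluster 5, with 2.13 (1.59 to 2.78, 53 UMIs). In cluster 8 the libraries gave 1.93 and 3.68, and in cluster 5 they gave 1.73 and 2.54, so the order of these 2 neighbours was within their counting error. Clusters 4, 1, 11, 10 and 6 followed between 1.44 and 1.15, with intervals that overlapped. Levels were lowest in cluster 3 at 0.622 (0.390 to 0.942), cluster 2 at 0.455 (0.270 to 0.719), cluster 12 at 0.403 (0.131 to 0.940) and cluster 9 at 0.303 (0.131 to 0.598). Cluster 9 was one of the clusters with the highest level of PDGFRA, the receptor that marks fibro-adipogenic progenitors, and cluster 12 had the highest levels of MYOG and of the embryonic myosin MYH3. Their PAX3 served as the background of cells that should hold little of it. In cluster 9, 8 of 1080 cells (0.741%, 0.320% to 1.45%) had a UMI at a median depth of 23011, against 42 of 1241 (3.38%, 2.45% to 4.55%) in cluster 8 at 13158. After thinning, the shares were 0.242% and 2.55%. Cluster 7, the other cluster with a high PDGFRA level, had 4 UMIs in 1298 cells of median depth 1389, and its level of 1.89 had an interval of 0.515 to 4.84. Cluster 15 had none in 317 cells, which allows a share of cells with a UMI of up to 0.946%, but at a median depth of 647 UMIs PAX3 was hardly detectable there. PAX3 itself chose these cells and was among the genes clustered, so no test was made of its level by cluster.

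**Figure D1:**
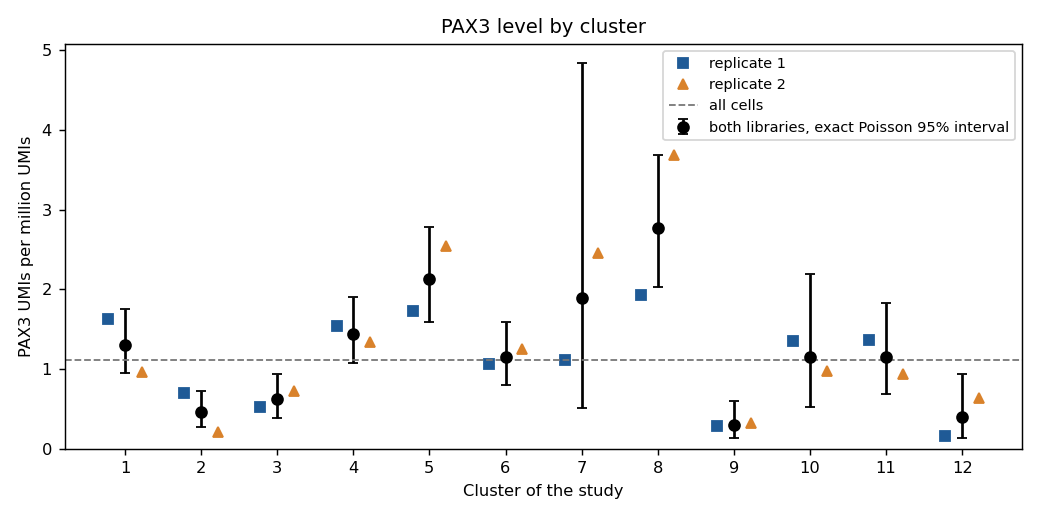
PAX3 level in UMIs per 1000000 (vertical axis, linear) in clusters 1 to 12 (horizontal axis) with exact Poisson 95% intervals over both libraries (black), the value in each library (squares and triangles) and the level over all cells (dashed line). Clusters 4, 5, 7 and 8 lie above the line in both libraries, cluster 7 only barely in replicate 1, and clusters 2, 3, 9 and 12 lie below it in both.

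The same PAX3 cells, counted by cluster, were also set beside cells of equal depth, as a description with no test. Cluster 8 held 14.2% of the PAX3 cells (10.6% and 18.0% in replicates 1 and 2) and 5.91% of the depth-matched cells (6.41% and 5.40%). Cluster 5 held 15.3% (14.1% and 16.5%) against 9.29% (9.44% and 9.14%). In both clusters the lowest PAX3 value lay above the highest matched value. Cluster 9 held 2.85% of the PAX3 cells (2.82% and 2.88%) against 8.97% (9.79% and 8.13%), cluster 3 held 7.83% (7.04% and 8.63%) against 13.3% (14.8% and 11.9%), and cluster 12 held 1.42% (0.704% and 2.16%) against 3.67% (4.01% and 3.31%). Here the 2 kinds of cells did not overlap either, in the opposite direction. There was no overlap in 2 more clusters, with 15.7% of the PAX3 cells (16.9% and 14.4%) against 12.2% (12.3% and 12.1%) in cluster 4, and 6.41% (9.86% and 2.88%) against 13.8% (12.8% and 14.9%) in cluster 2. In the other clusters of the study the values overlapped or met. Clusters 5 and 8 together gave 83 of the 281 PAX3 cells, so the other 198 lay elsewhere, among them 44 in cluster 4 and 38 in cluster 1.

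**Figure D2:**
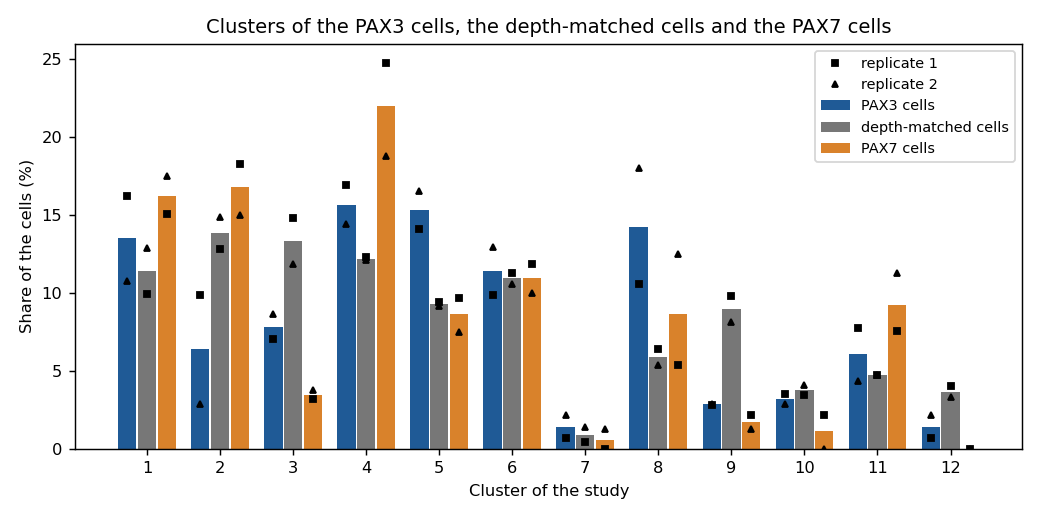
Share of the PAX3 cells, the depth-matched cells and the PAX7 cells (vertical axis, percent) in clusters 1 to 12 (horizontal axis), as bars over both libraries with the value in each library as a point. In both libraries PAX3 cells exceed matched cells in clusters 4, 5, 7 and 8, with only 4 PAX3 cells in cluster 7. They fall below matched cells in clusters 2, 3, 9 and 12 in both libraries, and no PAX7 cell was in cluster 12.

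The PAX3 cells carried the transcripts of myogenic cells. Levels below are UMIs per 10000 UMIs of the summed cells, with no correction for gene length since each UMI counts 1 transcript end. MYOD1 stood at 3.87 and 3.93 in replicates 1 and 2, DES, the intermediate filament of muscle, at 3.33 and 3.77, MYF5 at 1.28 and 1.23, and NCAM1, an adhesion molecule of satellite cells, at 4.71 and 5.12. Markers of the other cells that use PAX3 were rare in both kinds of cells. Of 15 neural crest, glial and melanocyte genes measured, 11 had 0 UMIs in the PAX3 cells, including SOX10, FOXD3, TYR and MLANA, and 6 of the 15 had a UMI in either the PAX3 or the matched cells. The summed level of that list was 0.358 and 0.437 against 0.410 and 0.377 in the matched cells, most of it S100B (0.326 against 0.310), which is not restricted to glia. Endothelial genes summed to 0.00361 and 0.00747, with CDH5, PECAM1 and VWF at 0 UMIs and no gene above 1 UMI in a library. Immune genes summed to 0.0470 and 0.0224, with PTPRC, CSF1R and AIF1 at 0 and CD68 the most abundant. The pericyte and smooth muscle list was not absent. It summed to 10.1 and 11.6 against 12.02 and 12.4, with ABCC9, MCAM and RGS5 at 0 of its 12 genes and ACTA2 the most abundant at 6.06 against 6.56. NOTCH3 was at 0.369 and 0.404 against 0.322 and 0.373 and did not pass. In the fit with the library as a term, described next, CNN1 was called higher and DES, which is also a muscle gene, lower.

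Against depth-matched cells, the PAX3 cells held more transcripts of ATF5 and COL1A1. In a fit that pairs the sums of each library, they also held more of the serine synthesis genes PHGDH, PSAT1 and PSPH and of MYF5, and fewer of MYOG, of the muscle genes ACTC1 and MYH3 and of the chemokines CCL2 and CXCL5. Without a library term, the quasi-likelihood test of edgeR, adjusted by Benjamini and Hochberg's method over 11447 genes, called 2 genes higher (0.0175%) and 0 lower in PAX3 cells, with 1078 genes at an unadjusted p under 0.05. With a library term, which sets each PAX3 sum beside the comparison sum of its own library, it called 143 higher (1.25%) and 107 lower (0.935%). The p-values of this fit measure only the spread left after the difference shared by both sums of a library is taken out. Small ones are therefore no proof of agreement between the libraries. DESeq2 without that term called 47 higher (0.411%) and 22 lower (0.192%), and all of these were among the genes called with the library term. Since the counts rest this heavily on the term, both fits are given below, and adjusted p-values are edgeR's unless DESeq2 is named. With the doublets left out the fit without the term called 12 genes higher and 11 lower.

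The 2 genes called without the library term were ATF5 and COL1A1. ATF5, a transcription factor of the amino acid and mitochondrial stress responses, stood at 1.74 and 1.72 in the PAX3 cells against 0.997 and 1.06 in the matched cells. Every PAX3 value was above every matched value, as in 18% of all genes tested. The log2 fold change was 0.77 (SE 0.064, edgeR adjusted p = 0.0353 without and 6.12e-07 with the library term). COL1A1, a chain of type I collagen, stood at 43.7 and 47.0 against 31.7 and 31.9, a log2 fold change of 0.53 (SE 0.048, edgeR adjusted p = 0.0412 and 1.68e-10). Without the term neither gene passed with all genes kept, with comparison cells of the nearest total UMIs, with no matching on depth or with clusters 3 and 12 left out, while over all settings tried the log2 fold change stayed between 0.64 and 0.83 for ATF5 and between 0.46 and 0.60 for COL1A1.

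Genes of serine synthesis and of the ATF4 response are a list drawn up after the values were seen, so its counts, median and levels are given as a description only. Of 24 tested, 14 were called higher and 0 lower with the library term and 1 without it, and their median log2 fold change was 0.44 against 0.00 over all genes tested. The summed level was 28.8 and 31.3 against 22.9 and 23.5. PHGDH, which opens serine synthesis from glycolysis, was at 5.30 and 6.07 against 4.29 and 4.51 (log2 fold change 0.39, edgeR adjusted p = 1.86e-05 with and 0.167 without the term). PSAT1, the next enzyme, was at 1.89 and 2.50 against 1.38 and 1.51 (0.62, 1.86e-05 and 0.182), and PSPH, the last, was at 2.34 and 2.39 against 1.74 and 1.67 (0.50, 2.73e-05 and 0.0734). In each of these 3 enzymes both PAX3 values lay above both matched values, as they did in 18% of all genes tested.

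ALDH1L2, the mitochondrial enzyme that oxidises formyl-tetrahydrofolate, was at 1.04 and 1.13 against 0.663 and 0.667 (0.73, edgeR adjusted p = 1.99e-05 and 0.0602). TRIB3, a pseudokinase induced by amino acid shortage, was at 0.235 and 0.265 against 0.116 and 0.121 (1.10, 0.000262 and 0.0734). ATF4 itself was 1.22-fold higher, at 6.03 and 6.49 against 5.11 and 5.29. PCK2, a mitochondrial enzyme that makes phosphoenolpyruvate, and WARS, the tryptophanyl-tRNA synthetase, were also among the genes called with the library term. Of 20 cytosolic tRNA synthetases, again a list made after the values were seen, WARS, GARS, AARS and SARS were called higher with the term and 0 lower, with a median of 0.15. The level of the serine and ATF4 list differed between clusters, from 43.1 in cluster 8 and 33.7 in cluster 5 to 16.6 in cluster 9 and 13.3 in cluster 12, and ATF5 stood at 3.33 in cluster 8 and 0.482 in cluster 9. The comparison matched on cluster, further on, sets cells of the same clusters side by side.

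Some collagens and other matrix genes were called higher too. Of 24 collagens tested, a list made after the values were seen, 15 had a positive and 9 a negative log2 fold change. With the library term 6 were called higher and COL4A1, a basement membrane collagen, lower, and without it COL1A1 alone was called. Of the 20 genes of the fibro-adipogenic and fibroblast list, 9 were called higher with the library term, among them COL1A1, COL1A2, COL3A1, the proteoglycans DCN, LUM and OGN, and FBN1, the main protein of microfibrils, while DPT was called lower. The summed level was 166 and 175 in the PAX3 cells against 132 and 135, of which COL1A2 made up 58.6 against 46.8. PDGFRA was at 131 UMIs in the PAX3 cells, with a log2 fold change of -0.45 (edgeR adjusted p = 0.0841 with the term), and DPT, a dermal matrix protein enriched in fibro-adipogenic progenitors, had a log2 fold change of -1.81 (0.0186 with the term) on 10 UMIs. By cluster, COL1A1 was highest in cluster 7, one of the PDGFRA-high clusters, at 146.5, followed by cluster 8 at 83.3, cluster 4 at 48.4 and cluster 5 at 47.2, and it was at 24.6 in cluster 9, the other PDGFRA-high cluster.

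Of 9 regulators of myogenesis tested, 0 were called without the library term, and with it 1 was called higher and 3 lower. MYF5 stood at 1.28 and 1.23 against 0.935 and 0.840 and was called higher with the library term (log2 fold change 0.52, SE 0.071, edgeR adjusted p = 0.000227) and by DESeq2 (adjusted p = 0.0029), but not by edgeR without the term (0.112). MYOD1 was at 3.87 and 3.93 against 4.16 and 3.99, a log2 fold change of -0.04 that did not pass. MYOG was at 0.987 and 1.37 against 2.21 and 2.11 and was called lower with the term (-0.85, SE 0.088, edgeR adjusted p = 1.36e-05, and 0.112 without it). DES and MYMK, the membrane protein that drives myoblast fusion, were also called lower with the term, at -0.34 and -0.93. MEF2A, MEF2C, MEF2D and MYF6 did not pass.

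Some genes of the contractile apparatus were called lower. Of 42 tested, 0 were called without the library term and 9 lower and 0 higher with it, where 0.935% of all genes tested were called lower. Several of the 42 passed the filter on low counts only through the matched cells, so no median or tally of signs is given. The 9 include MYL2, a slow myosin light chain with 4 UMIs in the PAX3 cells and 325 in the matched cells, 48.6% of the latter from 1 cell, which is among those. The summed level was 29.6 and 40.4 in the PAX3 cells against 51.6 and 51.0. ACTC1, cardiac actin, which embryonic and regenerating skeletal muscle also uses, was at 11.6 and 15.01 against 21.5 and 21.9 (-0.70, edgeR adjusted p = 1.05e-07 with and 0.122 without the term). MYH3 was at 0.257 and 0.579 against 1.23 and 1.05 (-1.43, 8.39e-05 and 0.167), and 30.5% of its UMIs in the PAX3 cells came from 1 cell. TNNC1, slow troponin C, passed only narrowly with the term (0.0493), and in replicate 2 it was at 1.04 against 1.13. CDKN1C, the cyclin-dependent kinase inhibitor that accompanies cell cycle exit, was at 3.49 and 4.43 against 6.79 and 7.14 (-0.80, 2.38e-08 and 0.0909). ACTC1 and CDKN1C were most abundant in clusters 12 and 3, at 149.8 and 60.2 and at 37.4 and 18.9, and MYH3 in clusters 12 and 7, at 15.5 and 4.69. With clusters 3 and 12 left out of both groups, the library term gave 224 genes higher and 172 lower, of which 132 and 72 were among those called with the clusters kept. MYOG (-0.98) and ACTC1 (-0.41) were still called lower with the term there, while DES (-0.11, edgeR adjusted p = 0.382) and MYMK (-1.60, 0.103) were not.

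**Figure D3:**
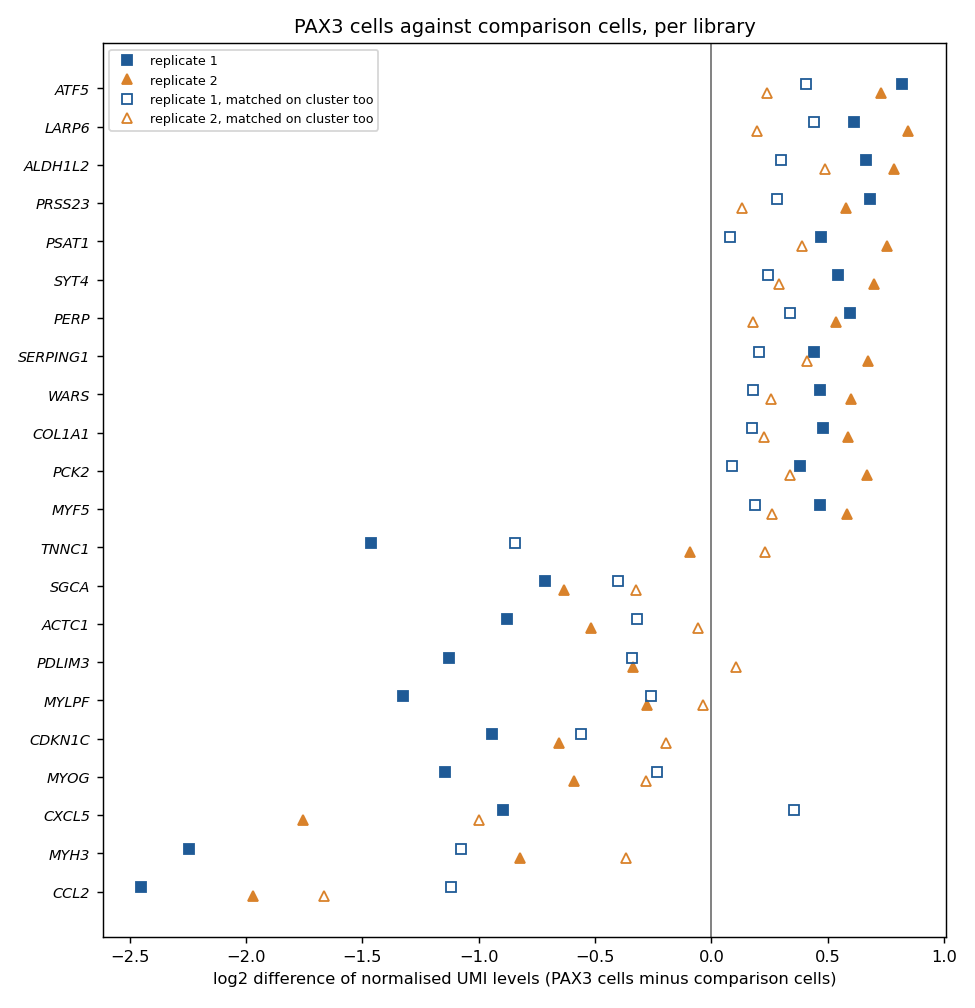
Log2 differences of normalised UMI levels, PAX3 cells minus comparison cells (horizontal axis), in each library for the 22 genes of the naming rule under the fit with the library term (vertical axis), against depth-matched cells (filled) and against cells matched on cluster as well (open). The rule took genes with both filled points on the same side of 0, and most open points lie closer to 0.

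Of the genes that the naming rule picked by fold, CCL2 was the furthest from 0. CCL2, which attracts monocytes, was at 0.123 and 0.116 against 0.685 and 0.467 (log2 fold change -2.25, SE 0.15, edgeR adjusted p = 2.79e-08 with the library term and 0.0806 without), on 65 UMIs in the PAX3 cells. CXCL5, which attracts neutrophils, was at 0.578 and 0.314 against 1.09 and 1.08 (-1.26, 1.14e-05 and 0.115), and INHBA, the activin A subunit, was at 0.199 and 0.127 against 0.515 and 0.427 (-1.51, 2.56e-06 and 0.0909). In the PAX3 cells, 43.8% of the INHBA UMIs, 33.6% of the CXCL5 UMIs and 20% of the CCL2 UMIs came from 1 cell each. CCL2 was at 4.85 in cluster 9 and at 0.0878 or below in clusters 1 to 6, 8, 11 and 12. NGFR, the low-affinity nerve growth factor receptor, had 0 UMIs in the PAX3 cells and 129 in the 2810 matched cells, at least 4.34-fold lower if the PAX3 cells are set at 3 UMIs over both libraries. It passed the filter on low counts only through the matched cells, so no test is given.

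Against depth-matched cells, known partners and targets of PAX3 other than MYF5 did not pass in either fit. Of 16 tested, MYF5 was called higher and 0 lower with the library term, and the median log2 fold change was 0.11. MET, the receptor through which PAX3 promotes migration of limb precursors, was at 0.383 and 0.355 against 0.332 and 0.313 (0.22, edgeR adjusted p = 0.462 with the term). FGFR4 was at 0.542 and 0.501 against 0.473 and 0.521, and DMRT2 at 0.318 and 0.347 against 0.377 and 0.417. LBX1, FOXC2, TCF15 and DACH2 had 0 UMIs in the PAX3 cells.

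The surface and quiescence genes of satellite cells divided evenly. NCAM1 (4.71 and 5.12 against 4.21 and 4.24) and CAV1 were called higher with the library term, and CDKN1C and CD82 (0.958 and 0.915 against 1.25 and 1.31) were called lower, of 16 tested. CD34, VCAM1 and CHRDL2 had 0 UMIs in the PAX3 cells. No gene of the Notch pathway, which holds satellite cells in quiescence, was called in either fit of 17 tested. HES1, its most abundant gene, was at 1.73 and 1.28 against 1.496 and 1.39. Of the S-phase genes 0 of 43 were called. Of 54 G2/M genes 0 were called without the term and 8 were called lower with it. A negative log2 fold change was found in 53 (median -0.20), against 5733 of all 11447 genes tested, but the libraries were unequal. The summed G2/M level was 72.0 in replicate 1 and 55.2 in replicate 2, against 76.8 and 74.4.

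To see which differences went beyond the clusters, each PAX3 cell was set beside 5 cells without either gene from the same library, cluster and depth range, 710 and 695 in all. These comparison cells are other cells, but the 2 sums of PAX3 cells are the same as above. Without the library term edgeR called 0 of 10551 genes in either direction, with 454 at an unadjusted p under 0.05, and DESeq2 called 1 higher (0.00948%) and 1 lower (0.00948%). With the term, 40 genes were higher (0.379%) and 17 lower (0.161%).

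IGFBP3, which binds insulin-like growth factors, was the gene called higher by DESeq2 as well. It was at 2.05 and 2.14 against 1.38 and 1.33, with a log2 fold change of 0.64 (SE 0.057, edgeR adjusted p = 9.38e-10 with and 0.0890 without the term). FST, the activin and myostatin antagonist follistatin, was at 0.817 and 0.897 against 0.443 and 0.639 (0.69, 1.13e-05 and 0.997), and 22.7% of its UMIs in the PAX3 cells came from 1 cell. ATF5 and ALDH1L2 remained higher with the term, at 1.74 and 1.72 against 1.32 and 1.48 (0.32, 0.00203) and at 1.04 and 1.13 against 0.850 and 0.817 (0.39, 0.00315). Of the serine and ATF4 list 4 of 22 were called higher and 0 lower, with a median of 0.17. MYF5 was at 1.28 and 1.23 against 1.13 and 1.05 and no longer passed (0.22, edgeR adjusted p = 0.167 with the term), and MYOG was at 0.987 and 1.37 against 1.17 and 1.69 (-0.26, 0.0501). These results turned on the setting. With the term, MYF5 passed with another random draw of comparison cells (0.30, edgeR adjusted p = 0.00407), and MYOG passed with cells under 2000 UMIs left out (-0.26, 0.0268) and stood at 0.0668 (0.911) with doublets left out. ATF5 (0.23, 0.150) and ALDH1L2 (0.31, 0.0616) no longer passed with doublets left out.

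On the lower side were S100A4, a calcium-binding protein of motile cells, at 4.90 and 6.77 against 7.98 and 7.99 (-0.44, edgeR adjusted p = 5.81e-07 with the library term and 0.997 without), and ADIRF, a nuclear factor of adipocyte differentiation, at 1.30 and 1.58 against 1.88 and 2.14 (-0.47, 2.59e-06 and 0.997). CDKN1C was still lower (-0.37, 7.41e-06), though its log2 fold change ranged from -0.396 to -0.181 over the settings tried. IGFBP5 and SPON2 were called lower as well. ACTA1, skeletal actin, was called lower with the term at 0.184 and 0.815 against 0.540 and 1.14, but 63.6% of its UMIs in the PAX3 cells came from 1 cell, its 2 groups overlapped, and with another random draw of comparison cells its log2 fold change was 0.0157 (edgeR adjusted p = 0.991). Of the muscle structure list 4 of 35 were called lower and 0 higher with the term, where 0.161% of all genes tested were called lower. Without the term 0 were called.

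**Figure D4:**
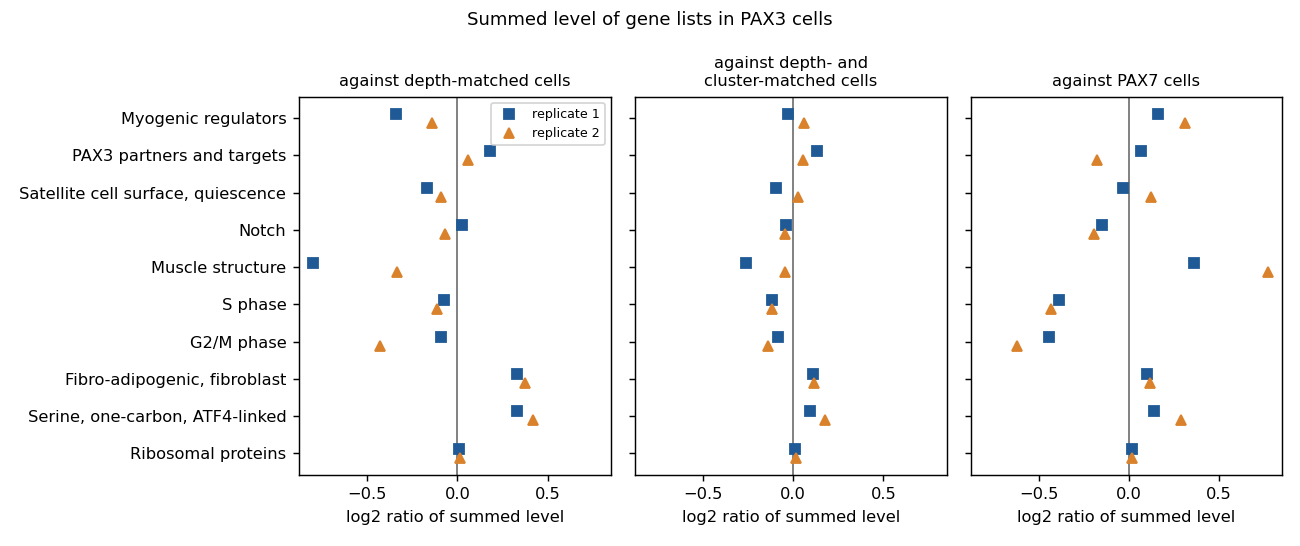
Log2 ratio of the summed level of 10 gene lists (horizontal axis) in PAX3 cells over depth-matched cells, cells matched on depth and cluster, and PAX7 cells, 1 point for each library. The serine and ribosomal lists were drawn up after values were seen. Muscle structure genes lie below 0 against both kinds of matched cells and above 0 against PAX7 cells. Against cluster-matched cells replicate 2 is only barely below 0 (-0.044, and -0.263 in replicate 1). The muscle genes MYLPF, TNNC2 and ACTC1 lose their difference from PAX7 cells when clusters 3 and 12 are left out.

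The PAX3 cells were last compared with the PAX7 cells, which were chosen by the same kind of rule. The median depth was 16317 UMIs in the PAX7 cells, and this comparison was not matched on depth. PAX3 cells held fewer transcripts of the division genes MKI67 and CENPF, of the Notch target HEYL and of S100A4 and ADIRF, and more of TNC, TGFBI and OGN. Over both libraries, HEYL was at 0.263 in PAX3 cells, 0.286 in depth-matched cells and 0.648 in PAX7 cells. In the same order MKI67 was at 2.99, 3.47 and 5.18, S100A4 at 5.82, 6.75 and 11.5, and ADIRF at 1.43, 2.01 and 3.28. For each of these the PAX7 cells lay further from the depth-matched cells than the PAX3 cells did. Of 14 collagens tested 0 were called without the library term and COL1A1 and COL1A2 higher with it, and their median log2 fold change was 0.03. Without the library term edgeR called 26 of 8788 genes higher in PAX3 cells (0.296%) and 31 lower (0.353%). With the term it called 139 (1.58%) and 179 (2.04%), and DESeq2 called 7 (0.0797%) and 10 (0.114%).

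ADIRF had the smallest adjusted p of the named genes, at 1.30 and 1.58 in PAX3 cells against 3.31 and 3.24 in PAX7 cells (log2 fold change -1.16, SE 0.10, edgeR adjusted p = 0.000196 without the term). HEYL, a Notch effector of satellite cells, was at 0.235 and 0.291 against 0.731 and 0.553 (-1.27, SE 0.19, 0.0120), while the other 9 Notch genes tested did not pass, HES1 among them at 1.73 and 1.28 against 1.57 and 1.34. S100A4 was at 4.90 and 6.77 against 10.5 and 12.6 (-0.95, 0.00731). MATN2, ITIH5 and SPON2, genes of secreted matrix proteins, and SYNE2, which anchors the nucleus to the cytoskeleton, were lower too.

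Some genes of division were called lower. Of 53 G2/M genes tested, 6 were called lower without and 30 with the library term and 0 higher, 51 had a negative log2 fold change, and the median was -0.48. Their summed level was 72.0 and 55.2 against 97.9 and 85.0. MKI67, the proliferation antigen, was at 3.49 and 2.47 against 5.05 and 5.33 (-0.77, SE 0.12, edgeR adjusted p = 0.0165), CENPF, a kinetochore protein, was at 6.98 and 4.55 against 10.5 and 9.35 (-0.76, 0.0307), and KIF23, a motor of cytokinesis, was at 0.470 and 0.336 against 0.852 and 0.739 (-0.96, 0.0266). Of 42 S-phase genes 1 was called lower without the term and 12 with it, at a median of -0.39. MCM10, a replication factor, was at 0.390 and 0.445 against 0.792 and 0.705. The clusters with the highest G2/M level, 2 and 4, held 6.41% and 15.7% of the PAX3 cells and 16.8% and 21.97% of the PAX7 cells. How much of the difference these shares account for was not tested.

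TNC, the matrix protein tenascin C, was at 4.58 and 4.30 in PAX3 cells against 3.05 and 2.96 (0.59, SE 0.079, edgeR adjusted p = 0.00731). The matrix genes TGFBI, OGN and THBS1, the GTPase gene RRAS2, ATF5 (1.74 and 1.72 against 1.06 and 1.26, 0.61, 0.0263) and CNN1, a calponin of smooth muscle and myofibroblasts, were higher as well. Muscle genes also passed, with MYLPF, a fast myosin light chain, at 2.54 and 4.45 against 1.37 and 1.28 (1.43, SE 0.21, 0.0110) and ACTC1 at 11.6 and 15.01 against 8.76 and 7.54 (0.73, 0.0120). These muscle calls rested on few cells. Clusters 3 and 12 held 26 PAX3 cells and 6 PAX7 cells, and with those cells left out MYLPF had a log2 fold change of 0.02 (edgeR adjusted p = 0.989), TNNC2 of 0.03 (0.961) and ACTC1 of -0.09 (0.823). THBS1 (0.30, 0.283), KIF23 (-0.92, 0.0503) and MCM10 (-0.71, 0.0768) also no longer passed without the library term. HEYL (-1.23, 0.0185), ADIRF (-1.15, 0.000211) and S100A4 (-0.89, 0.0185) still passed. DESeq2 did not call S100A4 (adjusted p = 0.0802), TGFBI (0.0880), OGN (0.0798), SPON2 (0.0884), ATF5 (0.0992), KIF23 (0.0798), MCM10 (0.197) or MYLPF (0.0956), and with doublets left out edgeR without the term did not call TGFBI, ATF5, THBS1 or KIF23. MYF5 was at 1.28 and 1.23 against 1.13 and 1.23 and MYOD1 at 3.87 and 3.93 against 3.75 and 3.11, and neither passed in either fit. Of 14 partners and targets of PAX3 tested, 0 were called without the library term, and FGFR4 and MEOX1 were called lower with it. FGFR4 was at 0.542 and 0.501 against 0.737 and 0.767 (-0.50, edgeR adjusted p = 0.0421). MEOX1, a homeobox factor of the somite, was at 0.112 and 0.0486 against 0.127 and 0.276 (-1.25, 0.0488). Of its UMIs in the PAX7 cells, 27.9% came from 1 cell. MYOG was at 0.987 and 1.37 against 0.725 and 0.87, with a log2 fold change of 0.59 that passed with the library term (edgeR adjusted p = 0.00471) and not without it (0.141), and with clusters 3 and 12 left out it turned to -0.98 (0.000163 with the term).

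**Figure D5:**
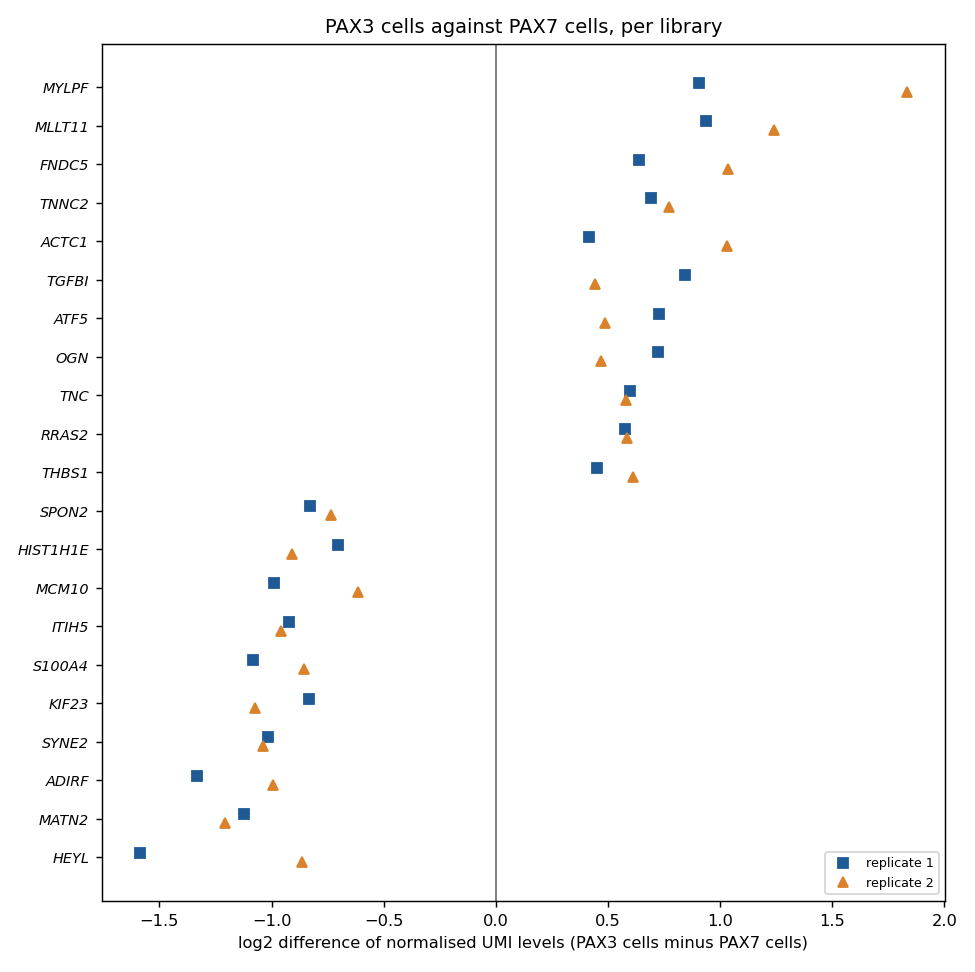
Log2 differences of normalised UMI levels, PAX3 cells minus PAX7 cells (horizontal axis), in each library for 21 genes of the naming rule under the fit without the library term (vertical axis). The rule took genes with both libraries on the same side of 0. HEYL, MATN2 and ADIRF are among the lowest and MYLPF is the highest. The muscle genes MYLPF, TNNC2 and ACTC1 lose their difference when clusters 3 and 12 are left out.

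Within the PAX3 cells, the 28 with 2 or more UMIs were set beside the 253 with 1, as a description with no test. COL1A1 was at 63.0 in the former and 43.2 in the latter, PSAT1 at 3.11 and 2.08, PERP at 4.04 and 2.81, and PCK2 at 1.85 and 1.12. For several muscle genes most of the UMIs came from 1 of the 28 cells, in cluster 12. MYLPF was at 8.15 and 2.93, with 339 of the 466 UMIs behind the former in that cell, and at 2.38 in the 27 others. ACTC1 was at 18.6 and 12.6, and at 9.32 without the cell, and TNNC1 was at 1.73 and 0.626, and at 0.262 without it. That cell also held 45 of 48 MYH3 UMIs and 171 of 177 ACTA1 UMIs. DES was at 3.08 and 3.60 and SGCA at 0.350 and 0.519. ATF5 was at 2.10 and 1.69, while MYF5 was at 0.996 and 1.29 and MYOD1 at 3.85 and 3.91. Of these 28 cells 7 were in cluster 5, 6 in cluster 1, 5 each in clusters 4 and 8, 3 in cluster 6 and 1 each in clusters 11 and 12.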

How the data were processed

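The data were 2 droplet libraries (10x Genomics) of satellite cells from a single calf. Reads were aligned by the authors with Cell Ranger 3.0.2 to the bovine assembly ARS-UCD1.2 and the libraries were joined after reads had been thinned to an equal number per cell, which lowers the counts of the deeper library. The authors deposited the UMI counts per gene and cell, for 19096 called cells and 21867 genes. They also deposited the average UMIs per cell of each gene in each cluster (scaled by the authors to a common total), beside columns of log2 fold change and p-value from their comparison of clusters, which were not used. No cell was removed here in the main comparisons.

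The map of cells to clusters was not used here as a deposited list. It was deduced as the assignment whose cluster averages equal the deposited ones (19096 cells in 32 rounds, 0 of 252240 gene and cluster pairs differing). Scrublet in scanpy 1.11.5 scored doublets (expected share 8%, threshold 0.25). Counts were summed over the cells of each group in each library. The sums were tested with edgeR 4.0.16 in R 4.3.3 (TMM, its default filter on low counts, quasi-likelihood test, Benjamini-Hochberg adjusted p under 0.05), with and without a library term, and DESeq2 1.42.0 was an alternative. PAX3 and PAX7, which chose the cells, were left out of all counts. Both sums of a library come from 1 preparation, which pairs them: deviations of the 2 sums from their group means correlated at 0.361, 0.379 and 0.217 over 7381, 7381 and 6137 genes in the depth-matched, cluster-matched and PAX7 comparisons.

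Genes named were PAX3 and PAX7, the tested myogenic regulators and PAX3 partners, the called and most abundant members of the other lists, and in each comparison the 12 largest positive and 10 largest negative log2 fold changes among genes called, in the same direction in both libraries, with a mean level of 0.5 or more. A few genes that the rule names are not reported here. For the fit with the library term the same rule was applied after its values were seen. The cells and the lists were chosen with earlier results of these data known, and the lists for serine and ATF4, tRNA synthetases, cytokines, IGF, collagens, ribosomal proteins and HOX genes after values were seen. On simulated counts with 200 genes changed 3-fold, edgeR without the library term recovered 79.5% in the depth-matched comparison of 11448 genes (1 false call), 88.5% in the cluster-matched comparison of 10552 (14 false calls) and 95.5% in the PAX7 comparison of 8790 (17 false calls). With the term it recovered 78.5%, 88% and 95.5%, with 1, 15 and 20 false calls. The simulated counts were independent, with no difference between libraries, no pairing and no gene carried by single cells. They do not show how far calls on the real sums can be trusted, or how changes smaller than 3-fold fare. Intervals are exact 95% intervals, and a count of 0 was read as up to 3.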

Additional observations from a re-analysis of the deposited data

How the results depend on the processing

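The number of genes called depended on the processing more than the direction of the named genes did. Against depth-matched cells, where edgeR without a library term called 2 higher and 0 lower, the genes higher and lower were 47 and 22 with DESeq2, 143 and 107 with the replicate block (the library term), 12 and 11 with doublets left out, 6 and 1 with another random draw, 10 and 11 with the PAX3 cells that also held PAX7 added, 0 and 0 with no filter, with the nearest total UMIs or with no matching on depth, 0 and 1 with clusters 3 and 12 left out, and 2 and 1 with cells under 2000 UMIs or shared barcodes left out. With the replicate block they were 276 and 285 (doublets out), 95 and 62 (another draw), 198 and 152 (nearest total UMIs), 113 and 100 (not matched), 238 and 200 (PAX7 added), 152 and 128 (clusters 5 and 8 out), 224 and 172 (clusters 3 and 12 out), 194 and 149 (under 2000 UMIs out), and 123 and 75 (shared barcodes out). Against cells matched on cluster, 0 and 0 became 1 and 1 with DESeq2, 2 and 0 with cells under 2000 UMIs left out, 1 and 0 with another draw and 40 and 17 with the block, and with the block 23 and 19 (doublets out), 59 and 31 (another draw) and 46 and 29 (under 2000 UMIs out). Against PAX7 cells, 26 and 31 became 7 and 10 with DESeq2, 53 and 62 with no filter, 20 and 19 with doublets out, 14 and 16 with clusters 3 and 12 out and 139 and 179 with the block, and with the block 185 and 220 (doublets out), 119 and 171 (clusters 3 and 12 out) and 132 and 171 (under 2000 UMIs out). The cause of these changes was not tested.

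The share of cells with a PAX3 UMI was 1.06% after thinning and 1.44% to 1.54% in single libraries. Matching on cluster moved the log2 ratio of the summed level from -0.24 to 0.0148 for the myogenic regulators, from -0.13 to -0.0354 for the satellite cell list, from -0.57 to -0.15 for muscle structure and from 0.35 to 0.11 for the fibroblast list, which was 0.42 with doublets left out. Against PAX7 cells, ACTC1 reversed to -0.0855 (-0.0815 with the block) and MYOG to -0.98 (with the block) once clusters 3 and 12 were left out. Leaving out a library left 1 sum against 1 and no test. Settings that left clusters out, or joined a setting to the block, were chosen after seeing the data.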

Other observations

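Ribosomal protein genes and HOX genes, lists made after values were seen, showed little difference between PAX3 cells and depth-matched cells. The ribosomal proteins summed to 2395 and 2388 UMIs per 10000 against 2378 and 2367, with a median log2 fold change of 0.03 over 78 genes, of which 1 was called higher with the library term. The HOX genes, which record position along the body axis, summed to 2.22 and 2.18 against 2.27 and 2.25, and 0 of 19 were called. Among insulin-like growth factor genes, IGFBP2 and IGFBP3 were called higher and IGF2 lower with the term.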
